A study of Arabidopsis thaliana with 4 samples.

Results

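The 10 genes described here encode the enzymes that build and degrade the protective solutes of the raffinose and proline pathways in *A. thaliana*. They were chosen by locus, as every array probe assigned to *GOLS1*, *GOLS2*, *GOLS3*, *GOLS4*, *RS5*, *RS4*, *P5CS1*, *P5CS2*, *ProDH1* or *P5CDH*, and make up 10 of the 29013 loci tested. The array carried 19 probes for them, and none of the spots of these probes was left out. Seedlings of *A. thaliana* Col0, 7 days old and grown on the plant side of a divided Petri dish, were exposed for 16 h to the microbial volatile organic compounds (mVOCs) of *Erwinia amylovora*, the bacterium of fire blight, which grew on the other side. Control seedlings of the same age were not exposed, and RNA came from roots and shoots together. The 4 control samples were labelled with Cy3 and the 4 mVOC-exposed samples with Cy5, and each of the 4 two-colour arrays paired 1 sample of each kind. Because the dyes were never exchanged, a dye effect on a probe and an effect of exposure cannot be told apart, and this holds for every ratio given here. One free-text label field speaks of embryonic stem cells, against all the others, and was not used.

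Raffinose is a sugar that plants accumulate under drought, cold and heat. Galactinol synthase (GOLS) makes galactinol from UDP-galactose and myo-inositol, and raffinose synthase then moves the galactose of galactinol onto sucrose. In *A. thaliana*, *GOLS1* and *GOLS2* are known as drought, salt and heat genes and *GOLS3* as a cold gene. Proline is made from glutamate, with the step of Δ1-pyrroline-5-carboxylate synthetase (P5CS) limiting its rate, and it is broken down again in mitochondria by proline dehydrogenase (ProDH) and pyrroline-5-carboxylate dehydrogenase (P5CDH). In stressed plants *P5CS1* usually rises while *ProDH1* falls, and *ProDH1* is induced again by proline once the stress ends.

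*GOLS2* and *GOLS3* fell and *GOLS4* rose, whereas none of the probes of the proline synthetases passed the test. Of *ProDH1*, the first enzyme of proline breakdown, 1 of 4 probes rose. Of *P5CDH*, the enzyme that follows it, 1 probe fell and the other rose. Every change was small: mean log2 ratios of mVOC-exposed over control samples lay between -0.30 and 0.26, and 0 of the 19 probes reached a fold of 2. Of the 19 probes, 8 had an adjusted p below 0.05 in limma, 4 of them higher and 4 lower (42.1%), against 23.5% of all 43550 probes tested (12% higher and 11.4% lower). Among probes well above background in all samples, which are called more often, the shares were 8 of 16 for these genes and 29.5% for the whole array. Counted by locus, with the probes of a locus averaged, 3 of the 10 genes were called (*GOLS2*, *GOLS3* and *GOLS4*), against 22.7% of all loci. These 3 genes have 1 probe each, so averaging left their ratios as they were and adds no evidence for them. *GOLS1*, *RS4*, *ProDH1* and *P5CDH*, which have more than 1 probe and at least 1 called, were not called by locus. The median log2 ratio of the 19 probes was -0.03, and that of all probes was 0.00059.

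The count of 8 depended on the processing. The reported values leave out spots marked for a non-uniform background before the background was modelled, a choice made with earlier results of these data known. With those spots kept, 5 of the 8 calls held, and those of *GOLS1*, *RS4* and the dimmer *P5CDH* probe were lost (adjusted p = 0.093, 0.122 and 0.119). Without replicate 4 the count was 3 (*GOLS2*, *GOLS3* and *ProDH1*), and without replicate 3 it was 5. With no offset, calls were left for *GOLS3* and *ProDH1* alone, and with plain background subtraction for *ProDH1* alone. Of 22 other settings, the calls of *GOLS1*, *RS4* and the dim and bright *P5CDH* probes were lost in 12, 11, 10 and 7. Those of *GOLS4*, *GOLS2*, *GOLS3* and *ProDH1* were lost in 5, 3, 2 and 1.

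**Figure D1:**
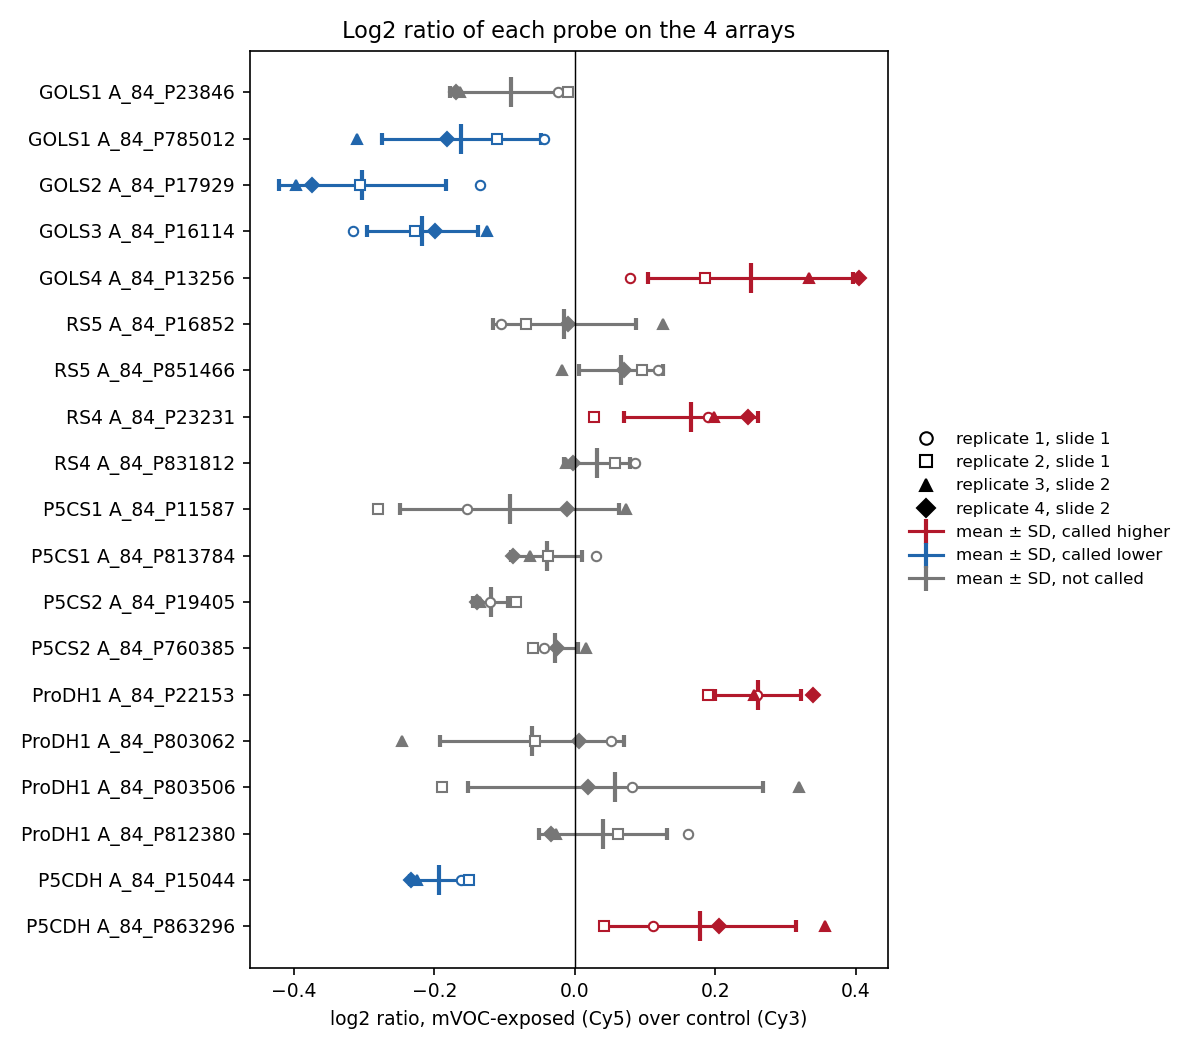
Log2 ratio (horizontal axis, mVOC-exposed in Cy5 over control in Cy3) of each of the 19 probes, with 1 symbol per array and a bar for the mean ± SD (n = 4). Red and blue mark probes called higher or lower (adjusted p below 0.05), and grey those not called: the called probes of *GOLS2*, *GOLS3*, *GOLS4* and *ProDH1* lie on 1 side of 0 on all arrays, and the probes of *P5CDH* lie on opposite sides.

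Among the galactinol synthases, *GOLS2* (AT1G56600, probe A_84_P17929) had the lowest ratio of all 19 probes. Its normalized intensity was 342, 376, 333 and 357 units in control replicates 1 to 4, and 312, 305, 253 and 276 units in the mVOC-exposed samples of the same arrays. All mVOC-exposed samples lay below all controls. Over the whole array, 15.8% of probes separated the groups this way in either direction, 7.89% with the exposed samples lower and 7.88% with them higher. The log2 ratio of *GOLS2* was -0.30 ± 0.12 (n = 4, SD, adjusted p = 0.000756), a level 1.23-fold lower after exposure. The arrays of slide 1 (replicates 1 and 2) gave -0.22 and those of slide 2 (replicates 3 and 4) gave -0.39, with both below 0.

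*GOLS3* (AT1G09350, probe A_84_P16114), the cold-responsive synthase, measured 111, 104, 112 and 115 units in the controls against 88.8, 88.4, 103 and 100.5 units in the mVOC-exposed samples, and the groups did not overlap. The log2 ratio was -0.22 ± 0.08 (n = 4, SD, adjusted p = 0.00446). Near this intensity the offset of 50 units, which is part of every intensity given here, pulls ratios towards 0. With no offset the ratio of *GOLS3* was -0.43 (adjusted p = 0.0475), and in the scanner software's own log ratio it was -0.55.

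*GOLS4* (AT1G60470, probe A_84_P13256) moved the other way. The controls measured 198, 200.1, 204 and 208 units, and the mVOC-exposed samples 209, 228, 256 and 275 units. All exposed samples lay above all controls, that of replicate 1 by a narrow margin. The log2 ratio was 0.25 ± 0.15 (n = 4, SD, adjusted p = 0.00427), with 0.13 on slide 1 and 0.37 on slide 2. Slide 1 alone did not give a call (adjusted p = 0.156), nor did the arrays without replicate 4 (0.20, adjusted p = 0.0543).

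*GOLS1* (AT2G47180) had a pair of probes that both leaned downward. For A_84_P785012 the controls measured 445, 571, 467 and 527 units and the mVOC-exposed samples 432, 529, 377 and 465 units. The groups overlapped, since the exposed sample of replicate 2 was brighter than all controls but 1. Within each array the exposed sample was the dimmer, and the log2 ratio of -0.16 ± 0.11 (n = 4, SD) passed the test (adjusted p = 0.0329). The second probe, A_84_P23846, ran from 967 to 1031 units in controls and from 890 to 1006 units in mVOC-exposed samples, with a log2 ratio of -0.09 ± 0.09 (n = 4, SD, adjusted p = 0.195). Their mean per locus was -0.13 (adjusted p = 0.0681), which was not a call. Without replicate 3 the ratio of A_84_P785012 was -0.11 and its call was lost (adjusted p = 0.165), as it was without replicate 4 (adjusted p = 0.134).

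Within each array the log2 ratio of *GOLS4* exceeded that of *GOLS2* by 0.55 ± 0.26 (n = 4, SD) and that of *GOLS3* by 0.47 ± 0.09 (n = 4, SD), and both differences were positive on 4 of 4 arrays. A two-sided exact permutation test of the signs gave p = 0.125 for each, the smallest that 4 arrays allow (0.15 after Benjamini-Hochberg adjustment over 6 such differences, all picked with the values in view). On every array *GOLS4* lay above 0 and both others below 0. The signs of the differences were thus fixed by that choice, and the test adds no evidence. The synthases are close relatives, and cross-hybridisation between them was not tested.

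**Figure D2:**
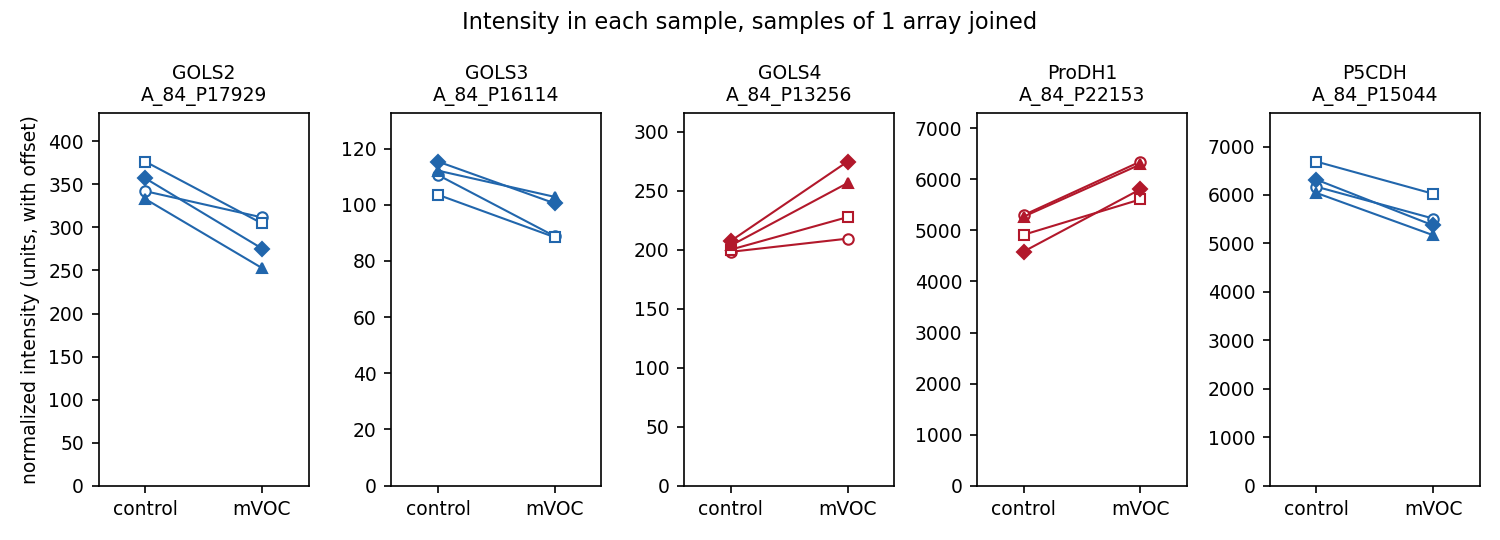
Normalized intensity (vertical axis from 0, units that include the offset of 50) in control and mVOC-exposed samples, with the samples of 1 array joined by a line. Shown are the 5 of 19 probes whose groups do not overlap, against 15.8% of all probes. Open circles and squares are replicates 1 and 2 (slide 1), filled triangles and diamonds are replicates 3 and 4 (slide 2): lines fall for *GOLS2*, *GOLS3* and *P5CDH* and climb for *GOLS4* and *ProDH1* on every array. That all lines of a probe run the same way follows from picking probes without overlap.

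Of the enzymes that use galactinol, 1 of 4 probes was called, against 23.5% of all probes, and neither gene was called by locus. *RS5* (AT5G40390, named *SIP1* in RefSeq), the main raffinose synthase of stressed leaves, was read by probe A_84_P16852 at 2489 to 2801 units in controls and 2373 to 2716 units in mVOC-exposed samples. Its log2 ratios of -0.11, -0.07, 0.13 and -0.01 fell on both sides of 0, with a mean of -0.01 and a 95% interval from -0.12 to 0.09 (adjusted p = 0.868). The second probe, A_84_P851466, lay near background at 77.1 to 96.5 units over all samples and had a log2 ratio of 0.07 ± 0.06 (n = 4, SD, adjusted p = 0.336).

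*RS4* (AT4G01970, *STS* in RefSeq), a stachyose and raffinose synthase known from seeds, was dim on both probes, of which A_84_P23231 was well above background in all samples. Probe A_84_P23231 measured 105, 104, 109 and 104 units in controls and 120.1, 106, 125 and 123 units in mVOC-exposed samples. The exposed sample of replicate 2 lay below 1 of the controls, so the groups overlapped, while the ratio was above 0 on 4 of 4 arrays. The log2 ratio of 0.17 ± 0.10 (n = 4, SD) passed the test (adjusted p = 0.0245). This call was lost without replicate 1, 3 or 4 (adjusted p = 0.082, 0.0702 and 0.152), and the mean over both probes, 0.10, was not called (adjusted p = 0.0949). The other probe, A_84_P831812, was not well above background in any sample.

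*P5CS1* (AT2G39800), the stress-induced proline synthetase, was measured at 1443 to 1609 units in controls and 1319 to 1565 units in mVOC-exposed samples by probe A_84_P11587. Its log2 ratios were -0.15 and -0.28 on slide 1 and 0.07 and -0.01 on slide 2. The mean of -0.09 ± 0.16 (n = 4, SD, adjusted p = 0.259) did not pass the test. Slide 1 alone gave -0.22, which passed (adjusted p = 0.0317), and slide 2 alone gave 0.03. Probe A_84_P813784, which the array assigns to transcript AT2G39800.2, lay near background at 75.1 to 87.3 units and had a log2 ratio of -0.04 ± 0.05 (n = 4, SD, adjusted p = 0.579).

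*P5CS2* (AT3G55610), the synthetase of dividing cells, was bright: A_84_P19405 measured 7075, 7399, 8021 and 7878 units in controls and 6506, 6982, 7304 and 7153 units in mVOC-exposed samples. The exposed sample was the dimmer on 4 of 4 arrays by nearly the same ratio, with log2 values of -0.12, -0.08, -0.13 and -0.14, but the groups overlapped. Their mean of -0.12 ± 0.03 (n = 4, SD) had an unadjusted p of 0.0181 in limma and did not pass after adjustment (adjusted p = 0.0683). It passed with slide as a fixed block (adjusted p = 0.0335) and with no background correction (adjusted p = 0.0422). With median centring in place of loess the ratio was 0.04, on the other side of 0. The second probe, A_84_P760385, had a log2 ratio of -0.03 ± 0.03 (n = 4, SD, adjusted p = 0.706).

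Of the proline breakdown genes, *ProDH1* (AT3G30775, *ERD5* in RefSeq), which oxidises proline to pyrroline-5-carboxylate, had the call that the most settings kept. Its bright probe A_84_P22153 measured 5301, 4915, 5271 and 4586 units in controls and 6348, 5607, 6292 and 5806 units in mVOC-exposed samples. Every exposed sample was brighter than every control. The log2 ratio was 0.26 ± 0.06 (n = 4, SD, adjusted p = 0.00102), and it passed under 21 of 22 other settings. The exception was an ordinary test without moderation of the variances (adjusted p = 0.0725). The size depended on the normalization, with 0.41 under median centring.

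The 3 other probes of the *ProDH1* locus, at 357 to 816 units over all samples, were not called. A_84_P803062 had a log2 ratio of -0.06 ± 0.13, A_84_P803506 of 0.06 ± 0.21 and A_84_P812380 of 0.04 ± 0.09 (n = 4, SD each), with adjusted p from 0.447 to 0.594. Within arrays, A_84_P22153 exceeded them by 0.32 ± 0.13, 0.20 ± 0.20 and 0.22 ± 0.13 (n = 4, SD), in 4, 3 and 4 of 4 arrays (two-sided exact permutation test, p = 0.125, 0.25 and 0.125). A_84_P22153 was picked for these differences with its values in view, so the tests are not independent evidence. Averaged over its 4 probes the locus stood at 0.07 (adjusted p = 0.212), so the rise of *ProDH1* rests on 1 probe. Where in the transcript each probe lies was not examined here.

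*P5CDH* (AT5G62530, *ALDH12A1* in RefSeq), which turns pyrroline-5-carboxylate into glutamate, had probes that disagreed in sign. The bright probe, A_84_P15044, measured 6170, 6689, 6042 and 6316 units in controls and 5514, 6025, 5170 and 5372 units in mVOC-exposed samples. All exposed samples lay below all controls, and the log2 ratio was -0.19 ± 0.04 (n = 4, SD, adjusted p = 0.00685). The dim probe, A_84_P863296, measured 78.8 to 90.0 units in controls and 89.7 to 101 units in mVOC-exposed samples, which overlapped, with a log2 ratio of 0.18 ± 0.14 (n = 4, SD, adjusted p = 0.0255). Within each array the dim probe exceeded the bright one by 0.37 ± 0.17 (n = 4, SD, 4 of 4 arrays, two-sided exact permutation p = 0.125). With the probes on opposite sides of 0 on every array, that sign was fixed in advance, and the test adds no evidence. Their mean, -0.01, was not called (adjusted p = 0.924). With median centring the bright probe stood at -0.04 (adjusted p = 0.478), and without replicate 4 its call was lost (-0.18, adjusted p = 0.0553). The dim probe lost its call without replicate 3 or 4 (adjusted p = 0.144 and 0.117) and read 0.43 with no offset.

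**Figure D3:**
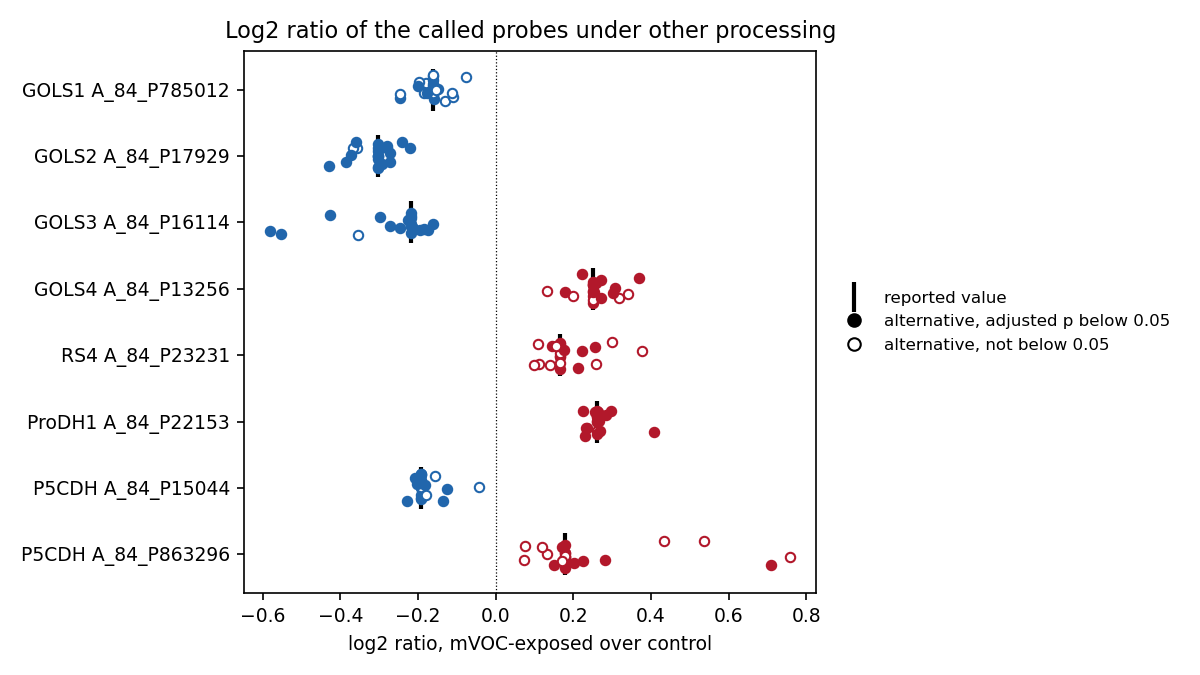
Log2 ratio (horizontal axis, mVOC-exposed over control) of the 8 called probes under each of the other processing settings, with the reported value as a black bar. Filled points passed the test and open points did not: no called probe changed its side of 0, while *GOLS3* and the dim *P5CDH* probe spread most, to -0.58 and 0.76.

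Most genes that supply or use the same compounds did not pass the test. Of 41 such enzymes and transporters, 4 were called higher, 4 lower and 33 were not called, with a median log2 ratio of 0.0078, against 11.7% higher and 10.9% lower of all loci. Of 23 transcription factors in a pair of further lists, 2 were called higher, 6 lower and 15 were not called, and the 6 lower ones were all heat, cold and drought factors. The lists, like the 10 genes, were drawn up with earlier results of these data known. Values in the next paragraphs are log2 ratios averaged over the probes of a locus.

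Around galactinol and raffinose, none of the 4 other galactinol synthases on the array was called, and 3 of these were not well above background in at least 1 of the groups. *MIPS1*, which makes the inositol phosphate from which myo-inositol derives, fell to a log2 ratio of -0.23 ± 0.11 (n = 4, SD, adjusted p = 0.00714). Median centring ended this call (-0.10, adjusted p = 0.0899). So did plain background subtraction, no offset, slide 1 alone and the ordinary test (adjusted p = 0.0755, 0.0779, 0.105 and 0.135). *MIOX5*, an inositol oxygenase, was called lower (adjusted p = 0.039) but was not well above background on any array, so no fold is given. That call was lost without replicate 1, 2 or 3 (adjusted p = 0.112, 0.103 and 0.127) and with no background correction (adjusted p = 0.109). The 6 other genes of the 8 in that list were not called. Of 6 genes of raffinose breakdown, the alpha-galactosidases *AGAL2* and *AGAL3* rose, by 0.20 ± 0.08 (adjusted p = 0.00804) and 0.13 ± 0.06 (adjusted p = 0.0468, n = 4 each). The *AGAL3* call was lost whichever replicate was left out, at adjusted p from 0.0522 to 0.181, and that of *AGAL2* without replicate 4 (adjusted p = 0.0557). The *AGAL2* call was also lost with plain background subtraction, no offset, slide 1 alone and the ordinary test (adjusted p = 0.0677, 0.0708, 0.123 and 0.111). In the deposited table it was lost as well (adjusted p = 0.0598). None of the 5 UDP-galactose epimerases and none of the 10 sucrose-phosphate synthases and sucrose synthases was called.

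Around proline, *P5CR*, the reductase that completes proline synthesis, fell to a log2 ratio of -0.23 ± 0.16 (n = 4, SD, adjusted p = 0.0129). It read -0.10 on slide 1 and -0.37 on slide 2, and its call was lost without replicate 3 or 4 (adjusted p = 0.0501 and 0.0836) and under median centring (-0.05). *ARGAH2*, an arginase on the route from arginine to ornithine, rose by 0.20 ± 0.03 (n = 4, SD, adjusted p = 0.00461) and kept its call in every setting tried. The other genes of that list, *ProDH2*, *OAT* and *ARGAH1*, were not called. Among amino acid carriers that take up proline, *LHT1* fell, with log2 ratios of -0.48, -0.21, -0.45 and -0.34 and a mean of -0.37 ± 0.12 (n = 4, SD, adjusted p = 0.000655). The *LHT1* call was lost in the ordinary test (adjusted p = 0.0847). *ProT3* rose by 0.19 ± 0.17 (adjusted p = 0.037), with 0.05 on slide 1 and 0.34 on slide 2. Its call was lost without replicate 3 or 4 (adjusted p = 0.142 and 0.181). *ProT1* was not called, and *ProT2* was not matched on the array by its locus.

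Transcription factors of families that include regulators of such genes were described in 2 lists. Of 9 bZIP factors of the S1 and C groups, some of which bind the *ProDH1* promoter, only *bZIP9* was called, with a rise of 0.20 ± 0.06 (n = 4, SD, adjusted p = 0.00621). That call was lost with plain background subtraction, no offset, slide 1 alone and the ordinary test (adjusted p = 0.0539, 0.0575, 0.0861 and 0.0786). Of 14 heat, cold and drought factors, 6 fell and 1 rose. *HSFA2*, a heat shock factor that activates galactinol synthase genes, fell most, with log2 ratios of -0.97, -0.92, -0.69 and -0.80 and a mean of -0.85 ± 0.12 (n = 4, SD, adjusted p = 2.42e-06). *CBF3*, the cold factor upstream of *GOLS3*, had -0.24 ± 0.06, *HSFA1D* -0.24 ± 0.04 and the drought and heat factor *DREB2A* -0.24 ± 0.03 (n = 4, SD, adjusted p = 0.00221, 0.00183 and 0.00173). The calls of *CBF3* and *HSFA1D* were lost in the ordinary test (adjusted p = 0.0672 and 0.0539). *ABF3* and *HSFA3* were the other called lower genes, and *ABF2*, an abscisic acid response factor, rose by 0.14 ± 0.05 (adjusted p = 0.0321), a call lost without replicate 2, 3 or 4 (adjusted p = 0.085, 0.0869 and 0.127). No relation between a factor and an osmolyte gene was tested.

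**Figure D4:**
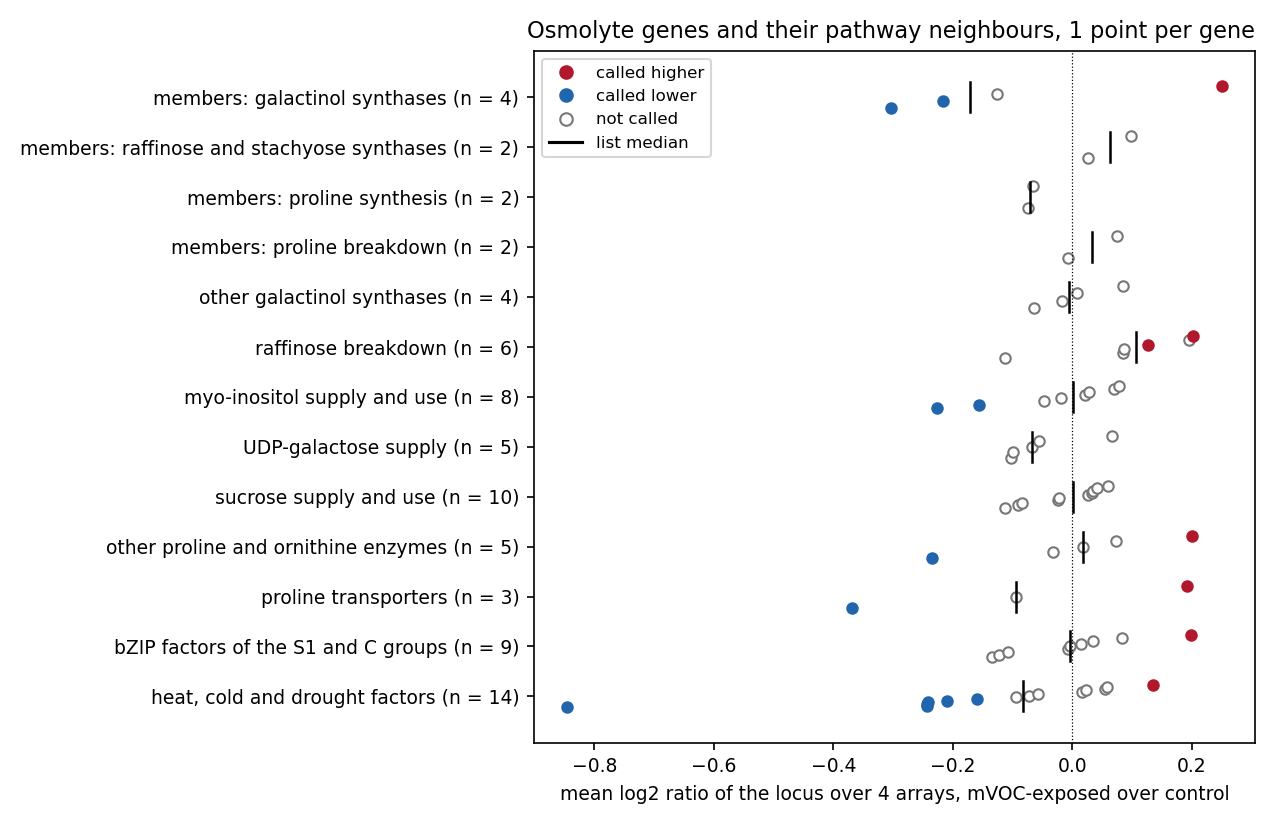
Mean log2 ratio of each locus over 4 arrays (horizontal axis, mVOC-exposed over control), 1 point per gene, for the 10 osmolyte genes by role and for the 9 neighbouring lists, with the list median as a black line. Filled points were called: the galactinol synthases hold both *GOLS2* at -0.30 and *GOLS4* at 0.25, and *HSFA2* at -0.85 lies farthest from 0.

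By the distance between the 4 log2 ratios, and among 20592 other loci well above background in all samples, the locus most like *GOLS2* was *RH8*, at a distance of 0.034. *NSP5*, *GH3.17*, AT4G32208 and *GDPD2* followed at 0.068 to 0.079. All 5 were called lower, which follows from picking them by their ratios. The proline gene with the smallest adjusted p per locus was *P5CS2*, itself not called (-0.07, adjusted p = 0.189). Its nearest loci were AT1G09300, *CPK31*, *ENODL2*, AT3G22142 and AT1G60060, at distances of 0.0040 to 0.024. None of them was called, for the same reason.

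The seedlings were checked by marker genes. The 5 shoot and 6 root markers were well above background in all samples. The summed intensity of the shoot list was 279637 to 317256 units in controls and 374730 to 405153 units in mVOC-exposed samples. Such a sum is weighted towards the brightest genes and does not show a rise of the list. By log2 ratio only *RBCS1A* was called higher (0.47), and *LHCB2.1* was lower (-0.34). *LHCB1.3*, *LHCA1* and *RCA* were not called (0.04, 0.08 and -0.02). The root list summed to 56040 to 86104 units in controls and 50128 to 94419 units in mVOC-exposed samples, with *EXPA7* called lower. Of 12 dry seed markers, 7 were lower and 2 higher in mVOC-exposed samples, with sums of 1845 to 1931 units in controls against 1332 to 1438 units. The seed albumin gene *SESA5* and the cruciferin gene *CRU3* were among the lower ones, and *OLEO2* (0.28) and *PER1* (0.37) were the higher ones. Of the 12, 5 were well above background in all samples. These were *CRA1* and *CRU3*, called lower, *OLEO2* and *PER1*, called higher, and *OLEO1*, not called. *SESA5* was not well above background in any mVOC-exposed sample. In whole seedlings a smaller share of a cell type and less RNA per cell cannot be told apart, and the part of these markers in the osmolyte gene values was not tested. Between 74.2% and 78.8% of spots per channel were well above background, no spot was saturated, and log2 ratios of array pairs correlated across probes, which are not independent replicates, with r from 0.44 to 0.74.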

How the data were processed

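Per the file headers, the authors deposited the output of Agilent Feature Extraction 11.5.1.1 for each array, which gives unnormalized, linear median intensities of each spot and of the surface around it. The deposited output also holds the scanner software's log10 ratio of Cy5 over Cy3. A deposited table of the series equals that log10 ratio for replicates 2 to 4 and the error of the log ratio for replicate 1, so only replicates 2 to 4 of it were used, as an alternative. The methods name GeneSpring, limma, background subtraction, lowess normalization and removal of control probes. Their amount of labelled RNA differs from that in the labels.

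The analysis used R (version 4.3.3), limma (version 3.58.1), jsonlite (version 2.0.0) and data.table (version 1.17.8). Spots whose background the scanner software marks as non-uniform were left out first, because 8 spots of replicate 4 with a local background above 100 units (up to 59573) raised the SD of its background model in Cy3 from 0.97 to 423. Normexp (offset 50) then corrected the background, loess normalized each array, control and outlier spots were dropped, and spots of a probe were averaged. Normalized intensities are per channel after Aquantile. An intercept-only model with eBayes tested 43550 probes and, on locus means, 29013 loci against 0, two-sided, with Benjamini-Hochberg adjustment over all. A call is an adjusted p below 0.05. Of the loci, 28581 are in the RefSeq table.

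The steps were tested on simulated data, in which p-values of unchanged probes were even, while false calls gathered among the dimmest probes. A first check stopped because the share of false calls in its simulated set was above the limit set. It was replaced by checks of the p-values and of the share pooled over several sets. The simulation had no slide effect and far fewer changed probes than the data had calls, so it does not vouch for the calls given here. Deviations from a probe's mean over the arrays correlated within arrays (r from 0.34 to 0.57) and not between arrays (-0.39 to 0.08). Centring on that mean lowers the values between arrays by itself, so the contrast is partly built in. The samples were paired because they share an array. The labels call the arrays biological replicates. The number of arrays limits the precision.

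The osmolyte genes, the lists and the background choice were set with earlier results of these data known. Named were all probes of the 10 loci and, per list and direction, at most 4 called genes by size, plus the 5 loci nearest to the leading raffinose and proline gene. *ABF3*, *HSFA3* and uncalled genes were named outside that rule.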

Additional observations from a re-analysis of the deposited data

How the results depend on the processing

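None of the 8 called probes changed direction under any of 22 other settings, and over all 19 probes 339 of 416 values kept direction and side of the threshold, 51 lost the call, 9 gained one and 17 changed sign. The count of called probes, 8 as reported, was 5 with all spots in the background model, 1 with plain background subtraction, 2 with no offset, 4 on the 2 arrays of slide 1 alone, and 0 with an ordinary test, where 7 had an unadjusted p below 0.05. With the channels as separate samples, that is without pairing by array (no replicate block), it was 4, and with 1 value per locus 3. Leaving out 1 replicate gave 3 to 8. Over all probes, 10225 calls became 3158 with plain subtraction (1966 higher and 1192 lower, against 5242 and 4983), 2751 with no offset, 22709 with median centring, 535 with the ordinary test (11617 at an unadjusted p below 0.05), 6070 on slide 1 alone, 4505 with separate channels, 6142 in the deposited table, 6578 per locus, and 5379 to 9897 without 1 replicate. Calls in the neighbouring lists, 16 as reported, were 7, 6, 32, 3, 10 and 10 under the first 6 of these, and 10 to 16 without 1 replicate. The median log2 ratio of the osmolyte probes ranged from -0.032 to 0.0020, and over their 10 loci it was -0.037. The cause of these shifts was not tested.

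Signs changed only in probes not called as reported. Under median centring, the values were 0.10 and -0.041 for the *RS5* probes A_84_P16852 and A_84_P851466, -0.13 for *RS4* A_84_P831812, which then passed the test (adjusted p = 0.0335) in the opposite direction to the called *RS4* probe, 0.0020 for *P5CS1* A_84_P11587, and 0.044 and 0.086 for the *P5CS2* probes. Slide 2 alone gave 0.058 for *RS5* A_84_P16852, -0.0069 for *RS4* A_84_P831812, 0.031 for *P5CS1* A_84_P11587 and -0.030 for *ProDH1* A_84_P812380. *ProDH1* A_84_P803506 read -0.054 on slide 1 alone and -0.011 in the deposited table, and *P5CS1* A_84_P813784 read 0.0066 with plain subtraction. Leaving out 1 replicate gave -0.062 to 0.016 for *RS5* A_84_P16852, -0.099 to 0.00070 for *ProDH1* A_84_P803062 and -0.030 to 0.14 for *ProDH1* A_84_P803506. Among 14 named list genes, 235 of 306 values kept their call, 71 lost it and 0 changed sign. Ratios of probes near background are bounded by the offset and are the least certain.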
